A study of Homo sapiens with 24 samples.

Results

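The centriole duplication genes PLK4, STIL, SASS6, CEP152, CEP192, CEP135 and CENPJ were followed through a time course of the human cell line K562. The genes were chosen as a fixed list of symbols, which were matched to the Ensembl identifiers of the expression table. All 7 were found among 12285 genes, and all 7 passed the filter of a mean of at least 1 FPKM, as did 12253 genes in all. FPKM is a level that counts sequenced fragments, scaled to the length of the transcript and to the number of mapped reads in the library.

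A centriole is a small barrel of microtubules, and a pair of them organises the centrosome, from which the mitotic spindle is built. Each existing centriole templates a single new one once per cell cycle, beginning around the entry into S phase. The scaffold proteins CEP192 and CEP152 bring the kinase PLK4 to the wall of the old centriole, PLK4 phosphorylates STIL, and STIL binds SASS6, whose oligomers form the cartwheel that gives the new centriole its symmetry. CEP135 links the cartwheel to the microtubule wall and CENPJ, also called CPAP, promotes growth of the wall. Much of the control of these factors in the cycle is known to act on the proteins, for example through degradation of PLK4 after it phosphorylates itself.

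K562 is an established erythroleukaemia line that grows in suspension and carries the BCR-ABL fusion. The culture medium was RPMI with P/S and BCS (bovine calf serum) at 10%, and synchrony was obtained by centrifugal elutriation, which separates cells by size. One library was made at each of 24 time points, every 2 h from 0 h to 46 h, with no treatment other than elutriation, so time was the only variable and there were no replicates. The study names 16 h and 18 h as anomalous and 32 h as mildly so. The main tests left out 16 h and 18 h and kept 32 h. Those of a 24 h course used the other 22 time points. The comparison of the 2 days used 20, because the partner hours were left out too.

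The K562 label was checked against 8 markers, all of which were present: the foetal globin gene HBG2 had 533 to 3141 FPKM and the erythroid transcription factor GATA1 had 49.2 to 149 FPKM. Among genes that mark other cell types, CD3E, MS4A1 and COL1A1 were not in the table, COL1A2 and PECAM1 did not exceed 3.94 FPKM, and PTPRC, LYZ, CD14, EPCAM and KRT18 had medians between 20.8 and 77.0 FPKM. Over the 22 time points without 16 h and 18 h, cyclin E2 (CCNE2), a gene of the G1/S transition, was highest at 2 h, with 38.9 FPKM, and lowest at 14 h, with 13.5 FPKM. Cyclin B1 (CCNB1), a gene of G2 and mitosis, was lowest at 4 h, with 65.0 FPKM, and highest at 22 h, with 237 FPKM. In bulk RNA, fewer cells in a phase and less RNA per cell cannot be told apart.

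The promoters of 5 members are shown here, chosen by their results in these data. STIL and CEP192, whose words are given below, are not shown. CEP152, SASS6 and CENPJ were called higher on the second day, and CEP135 was the only member called in the test of order in time. PLK4 had the highest level of the 7 and little change. When an hour and its partner on the other day were left out, CEP152 was called in 10 of 10 fits. CENPJ was called in 8 of these 10 and SASS6 in 2. The call of CEP135 was kept in 9 of 22 fits that left out a single time point. The windows run from 250 bases before to 50 bases after a transcript start, were taken from RefSeq on GRCh38.p14, and are written 5′ to 3′ on the strand of the gene. Capitals mark words of the CHR, which is TTTGAA or TTCGAA, of the CCAAT box, which is CCAAT, and of an E2F site, which is TTTGGCGC, TTTCGCGC, TTTCCCGC or TTTGGCGG, each searched on both strands, so that a word on the other strand appears reversed and complemented. The words do not contain one another.
CEP152, chr15:48811020-48811319, minus strand: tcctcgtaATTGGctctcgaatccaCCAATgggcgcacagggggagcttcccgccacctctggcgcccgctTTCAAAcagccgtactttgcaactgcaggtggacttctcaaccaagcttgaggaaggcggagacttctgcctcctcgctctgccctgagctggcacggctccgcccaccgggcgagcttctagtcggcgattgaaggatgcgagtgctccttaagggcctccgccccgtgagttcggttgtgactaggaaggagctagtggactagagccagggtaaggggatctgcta
SASS6, chr1:100132881-100133180, minus strand: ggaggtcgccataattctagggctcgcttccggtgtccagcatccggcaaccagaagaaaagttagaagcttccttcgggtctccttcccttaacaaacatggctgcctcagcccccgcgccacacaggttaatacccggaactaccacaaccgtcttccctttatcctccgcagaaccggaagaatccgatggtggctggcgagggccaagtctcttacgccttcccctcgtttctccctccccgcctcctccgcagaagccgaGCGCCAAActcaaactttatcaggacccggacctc
CENPJ (CPAP in RefSeq), chr13:24922812-24923111, minus strand: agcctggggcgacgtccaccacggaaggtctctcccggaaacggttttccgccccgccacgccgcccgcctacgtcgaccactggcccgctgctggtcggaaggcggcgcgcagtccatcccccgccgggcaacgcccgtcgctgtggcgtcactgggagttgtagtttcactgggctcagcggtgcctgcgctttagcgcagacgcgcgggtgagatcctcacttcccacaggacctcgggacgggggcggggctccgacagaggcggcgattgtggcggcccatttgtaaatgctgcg
CEP135, chr4:55948695-55948994, plus strand: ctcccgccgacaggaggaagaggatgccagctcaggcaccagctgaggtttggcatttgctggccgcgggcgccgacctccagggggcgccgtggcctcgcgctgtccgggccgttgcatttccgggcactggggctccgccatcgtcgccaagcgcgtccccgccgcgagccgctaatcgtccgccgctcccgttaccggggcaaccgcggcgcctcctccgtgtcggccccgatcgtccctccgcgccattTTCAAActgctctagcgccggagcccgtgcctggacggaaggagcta
PLK4 (first start), chr4:127880643-127880942, plus strand: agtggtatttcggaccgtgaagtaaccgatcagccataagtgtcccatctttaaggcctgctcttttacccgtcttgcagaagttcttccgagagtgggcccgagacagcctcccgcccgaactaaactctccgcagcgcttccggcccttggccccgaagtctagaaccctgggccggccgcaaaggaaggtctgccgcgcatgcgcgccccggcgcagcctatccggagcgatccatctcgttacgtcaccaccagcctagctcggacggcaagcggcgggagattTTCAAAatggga

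Promoters were found for all 7 members, with 9 windows in all because PLK4 had 3. A CHR, a word known from promoters of G2 and mitosis genes, was present in 4 of 7 members (PLK4, CEP152, CEP192 and CEP135), against 16.4% of the 35116 promoters of the table. A CCAAT box was present in 4 of 7 members (PLK4, STIL, CEP152 and CEP192), against 34.6% of promoters, and STIL had 3 of them. An E2F word was present in SASS6 and CEP192, against 3.35% of promoters, and the CENPJ window held none of the words. Counted by window, a CHR was in 4 of 9, a CCAAT box in 4 of 9 and an E2F word in 2 of 9. In PLK4 the CHR and the CCAAT box lay in different windows, and the window shown holds the CHR only. These matches describe letters only, and members with and without a CHR were found among those that were higher on the second day and among those that were not.

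The members were all present at every time point, and the levels given first are those over the 22 time points without 16 h and 18 h. Over these, PLK4 (ENSG00000142731), the kinase that starts duplication, had the highest level, with 35.4 FPKM at its lowest time point, a median of 41.2 FPKM and 49.9 FPKM at its highest. STIL (ENSG00000123473), the PLK4 substrate, ran from 19.7 FPKM at 0 h to 30.4 FPKM at 32 h, with a median of 26.2 FPKM. PLK4 exceeded STIL at 22 of 22 time points.

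CENPJ (ENSG00000151849), which regulates the length of the wall, ran from 16.1 FPKM at 2 h to 28.7 FPKM at 32 h, with a median of 22.1 FPKM. The scaffold CEP192 (ENSG00000101639) ran from 16.5 FPKM at 28 h to 23.8 FPKM at 32 h, with a median of 21 FPKM. SASS6 (ENSG00000156876), the cartwheel protein, ran from 16.7 FPKM at 4 h to 25.7 FPKM at 46 h, with a median of 19.8 FPKM. These 3 genes lay at nearly the same level: CENPJ exceeded CEP192 at 17 of 22 time points, while CEP192 exceeded SASS6 at 9 of 22, and the order of the last pair was not separated beyond their spread.

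The scaffold CEP152 (ENSG00000103995) ran from 9.57 FPKM at 2 h to 19.3 FPKM at 46 h, with a median of 13 FPKM. CEP135 (ENSG00000174799) had the lowest level, from 8.36 FPKM at 20 h to 10.8 FPKM at 28 h, with a median of 9.77 FPKM. SASS6 exceeded CEP152 at 22 of 22 time points and CEP152 exceeded CEP135 at 21 of 22, with the exception at 2 h.

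The median coefficient of variation over the 22 time points was 11.2% for the members and 14.2% for all genes tested. It was 10.2% for the PLK4 recruitment and turnover genes and 10.9% for the centriolar satellite genes, 2 of the lists described below. The coefficient of variation was 7.75% for CEP135, 8.31% for CEP192 and 8.85% for PLK4, which placed them at percentiles 8.33, 11.4 and 15.0 of all genes tested. It was 11.2% for STIL, 11.4% for SASS6 and 13.3% for CENPJ, at percentiles 30.6, 31.9 and 44.7. CEP152 was the most variable member at 16.4%, percentile 60.9, and its highest time point was 2.02 times its lowest. By comparison CCNE2 had 27.8% and CCNB1 30.1%.

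**Figure D1:**
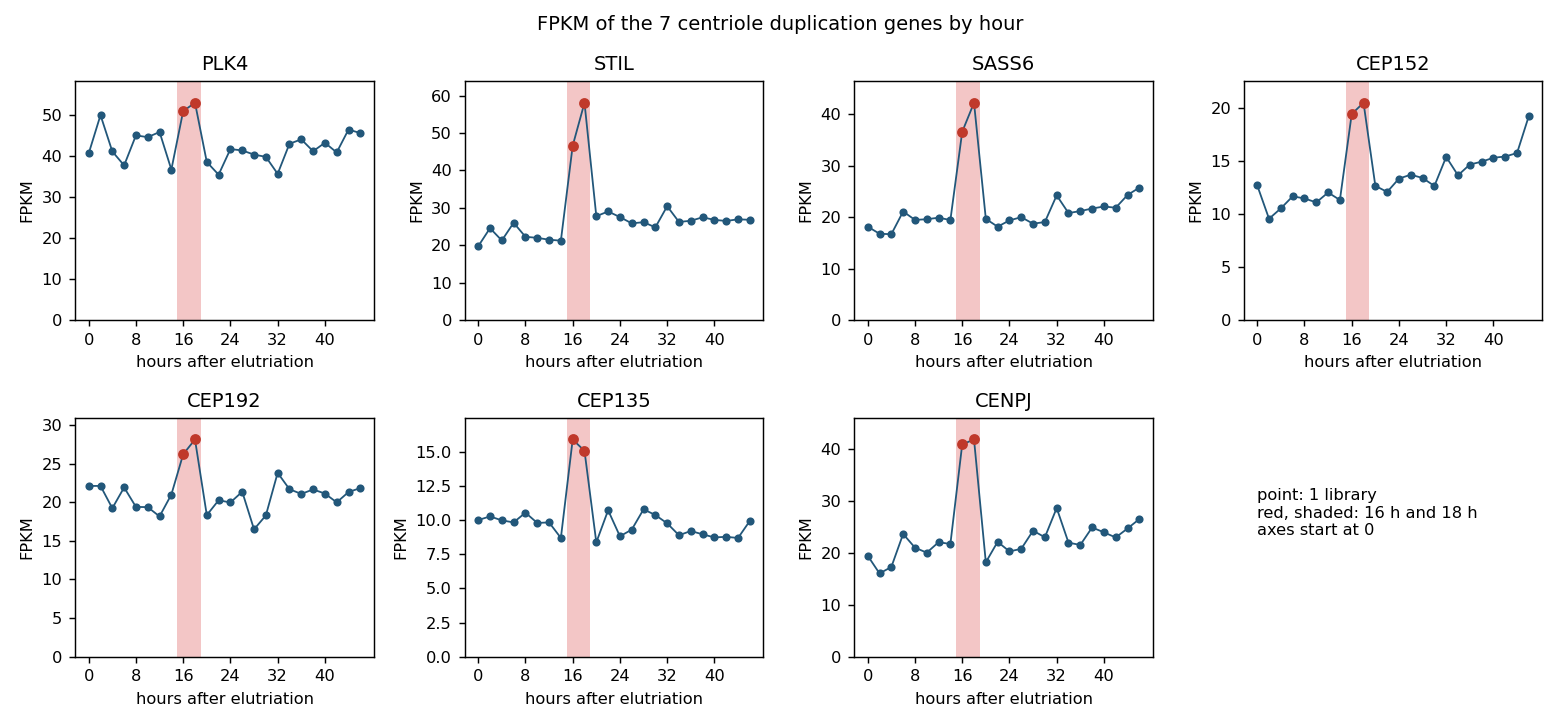
FPKM of the 7 genes (y axis, from 0) against hours after elutriation (x axis), with 1 library per point and 16 h and 18 h shaded and in red. Every gene is higher at 16 h and 18 h than at any other time point, PLK4 stays between 35.4 and 49.9 FPKM at the rest, and CEP152 climbs to 19.3 FPKM at 46 h.

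The first comparison asked whether the members rose and fell once in 24 h, a period taken here as the length of a cycle. Of 7 members 1 was called by the JTK test, which ranks each gene's order in time against cosines of 12 phases, and 16.2% of all genes tested were called. The called gene was CEP135, whose best phase put its highest values near 4 h and 28 h (permutation p = 0.00521 and adjusted p = 0.0395). The 2 days differed in shape, since CEP135 was above its mean from 0 h to 12 h on the first day, then at 22 h, from 28 h to 32 h and finally at 46 h. In size this was a small movement, from 8.36 to 10.8 FPKM, and the cosine fitted with limma gave an amplitude of 0.09 ± 0.03 (SE) on the log2(FPKM + 1) scale, with an adjusted p of 0.116.

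The other 6 members were not called in time order, with adjusted permutation p-values of 0.103 for SASS6, 0.252 for CEP152, 0.445 for STIL, 0.528 for CENPJ, 0.861 for CEP192 and 0.906 for PLK4. The fitted amplitude of PLK4 was 0.01 ± 0.05 (SE). In the limma cosine fit 0 of 7 members were called, against 15.1% of all genes tested, and 1 member had an unadjusted p under 0.05. The median amplitude over the members was 0.03 on the log2 scale and that over all genes was 0.10, while CCNE2 had 0.37 ± 0.08 (SE) and an adjusted p of 0.0116 in limma. The call of CEP135 was lost in 13 of 22 fits that left out 1 time point each, with adjusted permutation p-values from 0.0169 to 0.0769, and when all 24 time points were used (adjusted permutation p = 0.392). It was also lost without 6 h and 32 h, with upper-quartile scaling and with median centring, where its adjusted permutation p was 0.0552, 0.0566 and 0.0658.

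With all 24 time points SASS6 was called instead, with its best phase at 16 h (adjusted permutation p = 0.0368). At 16 h and 18 h SASS6 had 36.6 and 42.2 FPKM, the highest values of its course. The time points were taken as exchangeable in the permutations, so a slow drift also lowers these p-values, and with 1 library per time point they measure the scatter of libraries about a curve.

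The members were set beside the course of known cycle genes. The mean Z-score of 43 of 43 measured G1/S genes was highest at 2 h and lowest at 14 h, and that of 52 of 54 G2/M genes was lowest at 4 h and highest at 22 h. Over the 22 time points, which all genes share, Pearson's r with the G1/S course was 0.55 for CEP135, the highest of the 7, and between -0.29 and 0.13 for the rest. The r with the G2/M course was 0.63 for STIL, 0.62 for CEP152, 0.56 for CENPJ and 0.47 for SASS6.

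These last values shared a drift with the G2/M course: after removing a straight line in time from both, they were 0.31, 0.07, 0.19 and -0.08. PLK4 had an r of -0.44 with the G2/M course, at percentile 14.1 of all genes, and of -0.61 without the straight line. CEP135 held an r of 0.53 with the G1/S course without the line. The r of STIL with that course rose from 0.13 to 0.38, and the other members lay between -0.21 and 0.05. The correlations describe 22 libraries, and no test was made of them.

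**Figure D2:**
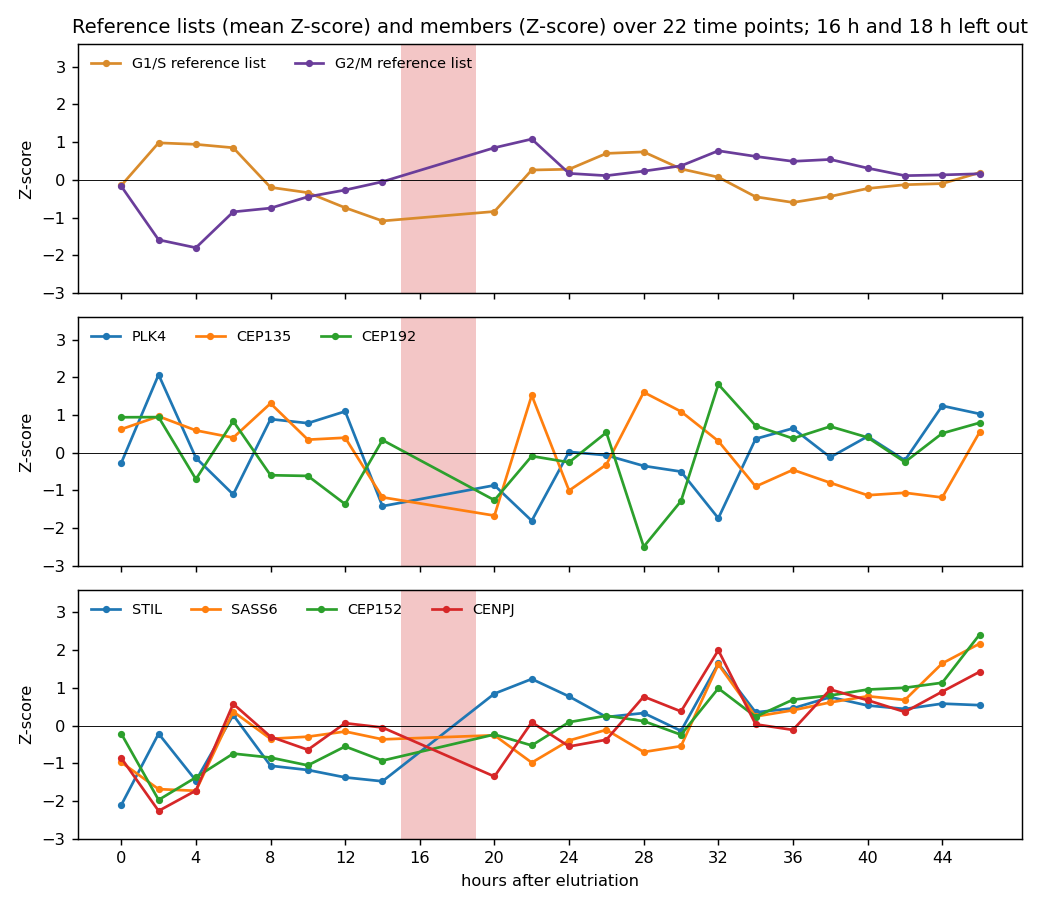
Z-scores (y axis) against hours after elutriation (x axis) over 22 time points, for the mean of the G1/S and G2/M reference lists (top), for PLK4, CEP135 and CEP192 (middle) and for STIL, SASS6, CEP152 and CENPJ (bottom), with 16 h and 18 h left out and shaded. The G1/S list peaks at 2 h and the G2/M list at 22 h, while CEP152, SASS6 and CENPJ lie higher on the second day than on the first and CEP135 has its highest value at 28 h.

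The second comparison set each hour of the second day against the same hour of the first, in 10 pairs of hours. Of 7 members 3 were higher on the second day and 0 lower by limma, also 0 lower at an unadjusted p under 0.05, and 12.6% of all genes tested were called higher and 7.04% lower. CEP152, SASS6 and CENPJ rose, whereas PLK4, CEP192 and CEP135 had differences of 0.02, 0.03 and -0.04 on the log2 scale. The median difference over the members was 0.17 and that over all genes was 0.01. Of 52 measured G2/M reference genes 21 were also called higher and 1 lower on the second day by limma, with a median difference of 0.23, and their part in the members' result was not tested.

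CEP152, the PLK4 scaffold, had 9.57 to 12.7 FPKM over the 10 time points of the first day and 12.7 to 19.3 FPKM over the 12 of the second, with means of 11.5 ± 0.965 (SD, n = 10) and 14.8 ± 1.73 (SD, n = 12). Only 0 h and 20 h of the first day reached the lowest value of the second, at 30 h. In the fit CEP152 was 0.32 ± 0.06 (SE) higher on the log2 scale, or 1.25-fold, with a limma adjusted p of 0.00253, and it was higher in 10 of 10 pairs of hours. The call held in 10 of 10 fits that left out a pair, with limma adjusted p from 0.00126 to 0.00837.

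CENPJ had 16.1 to 23.7 FPKM on the first day and 20.3 to 28.7 FPKM on the second, and the days overlapped. It rose by 0.22 ± 0.06 (SE) on the log2 scale, or 1.17-fold, with a limma adjusted p of 0.0231, and was higher in 8 of 10 pairs. Its call was lost without 4 h and 28 h and without 20 h and 44 h, with limma adjusted p up to 0.0549. The call was also lost in the cleaned table that the authors deposited, fitted with 16 h and 18 h kept (limma adjusted p = 0.516). SASS6 had 16.7 to 21.1 FPKM on the first day and 18.7 to 25.7 FPKM on the second, with overlap too.

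SASS6 rose by 0.17 ± 0.06 (SE), or 1.13-fold, with a limma adjusted p of 0.0446, and was higher in 9 of 10 pairs. This call stood near the threshold and was kept in 2 of 10 fits that left out a pair, with limma adjusted p from 0.0178 to 0.0941. With the GC trend removed it was 0.125 and with median centring 0.0743, both by limma. STIL had 19.7 to 29 FPKM on the first day and 24.8 to 30.4 FPKM on the second, and its difference of 0.19 ± 0.07 (SE), higher in 7 of 10 pairs, had a limma adjusted p of 0.0550. STIL was called in 3 of 10 fits that left out a pair.

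PLK4 was higher in 5 and lower in 5 of 10 pairs, with means of 41.5 ± 4.66 FPKM (SD, n = 10) on the first day and 41.8 ± 2.85 FPKM (SD, n = 12) on the second. CEP192 was higher in 6 of 10 pairs (limma fold 1.02) and CEP135 in 4 of 10. When 16 h and 18 h were put back with their partners, 0 of 7 members were called, and CEP152, the 1 member with an unadjusted p under 0.05, had a limma adjusted p of 0.118. Over all genes 1788 of 12253 were then called in either direction, beside 2401 in the main fit. The second day, a longer time in culture and a lower degree of synchrony cannot be told apart in this design.

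**Figure D3:**
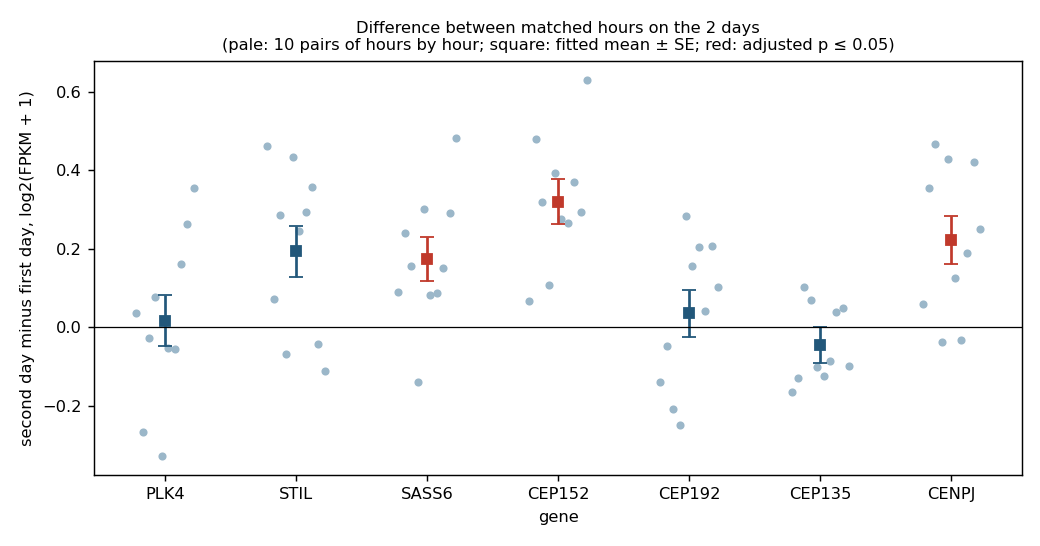
Second day minus first day on the log2(FPKM + 1) scale (y axis) for each gene (x axis), with pale points for the 10 pairs of hours and squares for the fitted mean with its SE, red where the limma adjusted p is 0.05 or below. CEP152 lies above 0 in all 10 pairs with a mean of 0.32, CENPJ and SASS6 have means of 0.22 and 0.17, and the points of PLK4 are spread on both sides of 0.

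The 3 genes called higher on the second day had the 3 highest correlations among the members, and r includes that shared difference between the days. Over the 22 time points r was 0.87 between SASS6 and CEP152, 0.81 between SASS6 and CENPJ and 0.75 between CEP152 and CENPJ. With a straight line in time removed these were 0.64, 0.61 and 0.41, and SASS6 with CEP192, at 0.49, lay above the last. STIL correlated at 0.50 to 0.56 with these 3, and at -0.14 to 0.04 without the line.

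PLK4 had r between -0.27 and 0.04 with the other 6 members, and CEP135 between -0.40 and 0.01. With 16 h and 18 h included, all 21 pairs had an r between 0.36 and 0.94. All of these values come from the same libraries.

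The genes with the courses most like each member, over the 22 time points, were not centriole genes of the lists used here. For PLK4 they were CCNL2, WASH8P and ENSG00000276390, with r from 0.71 to 0.77, and for CEP135 they were ZNF513, the checkpoint kinase gene CHEK1 and FAM20B, with r from 0.79 to 0.80. CEP152 had ENSG00000267002, FCGR2A and FOXL2NB at 0.95 to 0.96, SASS6 had TENM1, H19 and RNF24 at 0.90 to 0.92, and STIL had VN1R81P, LMBR1 and IBTK at 0.84 to 0.91. CENPJ had PGPEP1, BMP2K and MOB3B at 0.89 to 0.90, and CEP192 had PROSER1, YAF2 and MARCHF6 at 0.78 to 0.84. To the mean course of the members FAM241A, DAB2, ACSM3, USP48 and GLUL were nearest, at 0.88 to 0.90.

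The third comparison described the libraries that the study calls anomalous. All 7 members were higher at 16 h and 18 h than at each of the other 22 time points, and 7 of 7 lay above the line drawn from 14 h to 20 h, as did 7114 of 12253 genes. STIL stood at 21.2 FPKM at 14 h and 27.8 FPKM at 20 h, and at 46.6 and 58.1 FPKM at the hours between. It stood 1.07 above the line on the log2 scale, or 2.10-fold, against -0.13 to 0.15 at 16 other pairs of consecutive hours.

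CENPJ had 21.8, 41.0, 41.9 and 18.2 FPKM at 14 h, 16 h, 18 h and 20 h and stood 1.02 above the line, or 2.03-fold. SASS6 had 19.4, 36.6, 42.2 and 19.7 FPKM and stood 0.97 above it, or 1.96-fold. Thus 2 of 7 members were at least 2-fold above the line, as were 8.95% of all genes. The departures of STIL, CENPJ and SASS6 lay at percentiles 92.6, 91.5 and 90.4 of all genes.

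CEP135 had 8.69, 15.9, 15.0 and 8.36 FPKM, a departure of 0.79. CEP152 had 11.3, 19.5, 20.5 and 12.7 FPKM, a departure of 0.69. The smallest belonged to PLK4 and CEP192. PLK4 went from 36.6 to 50.8 and 52.9 FPKM and back to 38.5, a departure of 0.46, and CEP192 from 21 to 26.2 and 28.1 FPKM and back to 18.3, a departure of 0.45.

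The transcripts of the members are poor in G and C. Their GC content was 40.2% for PLK4, 41.8% for STIL, 35.0% for SASS6, 43.3% for CEP152, 42.5% for CEP192, 40.0% for CEP135 and 41.8% for CENPJ, all below the median of 49.2% over all genes, and SASS6 lay at percentile 0.881. After the trend of each library with GC content was removed, the departures were 0.55 for STIL, 0.50 for CENPJ, 0.41 for SASS6, 0.22 for CEP135 and CEP152, and they turned to -0.05 for CEP192 and -0.11 for PLK4. The departures of PLK4 and CEP192 then lay within the range that the other pairs of hours had as deposited. Under upper-quartile scaling all 7 stayed above 0, at 0.22 to 0.84, while the median over all genes moved from 0.14 to -0.06.

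At 32 h, the time point called mildly anomalous, CENPJ lay 0.34 above the mean of its neighbours, SASS6 0.27, STIL and CEP192 0.25 and CEP152 0.21, and PLK4 had a departure of -0.21. At 6 h the same 5 genes lay above their neighbours by 0.30, 0.22, 0.25, 0.17 and 0.08, and PLK4 had -0.19. Over 16 other hours the range was -0.25 to 0.09 for CEP152, -0.25 to 0.22 for CEP192 and -0.24 to 0.25 for STIL. CEP152 and CEP192 thus lay within their ranges at 6 h, and STIL was at the upper end of its range at both hours. CENPJ, SASS6 and PLK4 lay outside theirs at both. CEP135 departed by 0.02 at 32 h and by -0.06 at 6 h. The direction of each member other than CEP135 was the same at both time points. With both left out, together with their partner hours on the other day, the day comparison still called 3 members higher.

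**Figure D4:**
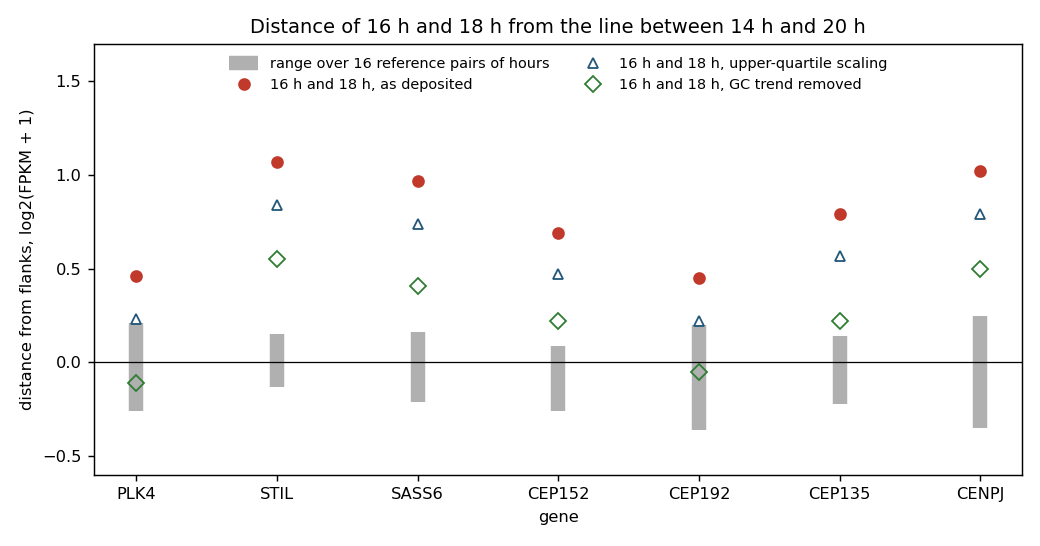
Distance of the 16 h and 18 h values from a line drawn through 14 h and 20 h on the log2(FPKM + 1) scale (y axis) for each gene (x axis), as deposited, with upper-quartile scaling and with the GC trend removed, beside grey bars for the range over 16 other pairs of hours. STIL, CENPJ and SASS6 stand near 1 as deposited and at 0.41 or above with the GC trend removed, while PLK4 and CEP192 then lie inside the grey bars, which were computed as deposited.

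The other genes of centriole and centrosome biology were taken from 6 lists, of which 76 of 79 genes were measured. By JTK 11 of 76 (14.5%) were called against 16.2% of all genes, and by limma 5 (6.58%) were higher and 1 (1.32%) lower on the second day, against 12.6% and 7.04% of all genes. Among the factors that recruit PLK4 or control its turnover, 1 of 11 was called in time order, CEP63, a partner of CEP152, at 6 h (adjusted permutation p = 0.0170). CEP57L1, a paralogue of the centrosomal protein gene CEP57, was higher on the second day by 0.21 ± 0.06 (SE) on the log2 scale (limma adjusted p = 0.0271).

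Of 23 genes of centriole elongation and wall 3 were called in time order: CEP44 at 18 h, the daughter centriole gene CNTROB at 8 h and the triplet microtubule factor gene TEDC1 at 10 h, with adjusted permutation p from 0.0362 to 0.0432. POC1B, of the centriole wall, was 0.22 ± 0.06 (SE) higher on the second day. Of 12 pericentriolar material genes 4 were called, TUBGCP4 at 14 h, the gamma-tubulin gene TUBG1 at 8 h, MZT1 at 20 h and the scaffold gene PCNT at 6 h, with adjusted permutation p from 0.00878 to 0.0395. Between the days 0 of the 12 were called by limma, and 1 had an unadjusted p under 0.05.

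Of 12 appendage genes CEP89 and ANKRD26 were called in time order, at 6 h and 2 h, and CEP83 and FBF1 were higher on the second day by 0.21 and 0.25. Of 12 satellite genes KIAA0753 was called in time order (adjusted permutation p = 0.0487), and SSX2IP was lower on the second day by limma, by -0.15 ± 0.04 (SE). Of 6 genes of centriole disengagement and centrosome separation 0 were called in time order by JTK, 0 had an unadjusted p under 0.05, and the kinase gene NEK2 was higher on the second day by 0.29 ± 0.10 (SE), with a limma adjusted p of 0.0464. The genes named for the second day were chosen after their values were seen. With all 24 time points, 5 of the 11 calls in time order were lost (CEP63, CEP44, CEP89, ANKRD26 and KIAA0753, adjusted permutation p from 0.0887 to 0.276). Between the days 4 of 6 were lost with all 24 time points (CEP57L1, POC1B, CEP83 and NEK2, limma adjusted p from 0.329 to 0.909).

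In departure at 16 h and 18 h, 54 of the 76 genes lay above the line, beside 7114 of 12253 over all genes, and 15 were at least 2-fold above it, beside 8.95% of all genes. The median departure was 0.87 for the satellite genes, 0.73 for the appendage genes, 0.55 for the PLK4 recruitment and turnover genes, 0.40 for the elongation and wall genes and 0.17 for the genes of disengagement and separation and -0.05 for the pericentriolar material genes, beside 0.79 for the 7 members and 0.14 for all genes. The members thus lay between the satellite and appendage lists.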

How the data were processed

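RNA was measured at 24 time points of the cell line K562, with 1 library per time point, and each library was assigned to its hour from the labels. The authors aligned reads with STAR and quantified them with Cufflinks and Cuffnorm, and they deposited FPKM values per gene. The build GRCh37 is named in the submitters' processing notes, and versions and annotation are not given in the sources used here. The authors also deposited a cleaned version of that table, whose entries are scores centred on 0, and it served as an alternative only. Its fits kept all 24 time points, with 16 h and 18 h among them. There were 0 unused columns of per-sample values.

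Sequencing depth is unknown: at most 32.7% of low values of a library lay within 0.1 of a whole number of reads, where evenly spread values give 20.0%, so no count model was used. FPKM values were used as log2(FPKM + 1), which understates the changes of low genes. Testing was limited to genes whose mean reached 1 FPKM (12253 of 12285).

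Order in time was tested with the JTK statistic, the highest Kendall S against 24 h cosines of 12 phases, and 100000 permutations of the time points, two-sided in phase. Cosine amplitude (with a linear term in time) and the second day minus the first (10 pairs of hours, hour as a block) were fitted with limma 3.58.1 in R 4.3.3, with a mean-variance trend. All p-values were Benjamini-Hochberg adjusted over all genes tested, and adjusted p of 0.05 or below was called. The departure at 16 h and 18 h had no test. GC content came from GENCODE 29 and was known for 99.1% of genes. Scripts also used numpy 2.4.6, pandas 2.3.3, scipy 1.17.1 and statsmodels 0.14.6. The fits were run on simulated data with independent noise and planted effects. These held no drift in time, so they cannot show how the tests behave under one.

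The members, pathway lists and reference lists were chosen with earlier results of these data known. Genes named are the members, CCNE2 and CCNB1, the 3 genes with the highest r to each member and the 5 to their mean course, and, of each pathway list, at most 4 genes called by JTK. The 6 pathway genes named from the day comparison fall outside this rule and were chosen after their values were seen. Alternatives were a pseudocount of 0.1, no filter, upper-quartile scaling, median centring, the cleaned table, removal of the GC trend, all 24 time points, leaving out 6 h and 32 h as well, periods of 20 h and 28 h, no linear term and no block. In the day comparison any hour left out took its partner on the other day with it. Leaving out each time point or pair of hours was chosen after seeing the data. One marker of another cell type is not reported here.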

Additional observations from a re-analysis of the deposited data

How the results depend on the processing

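The cosine fit called 0 of 7 members under every alternative run. For the test of order in time, 1 member was called with all 24 time points and in the cleaned table, which also kept 16 h and 18 h (both SASS6). CEP135 was the 1 member called without the filter and with the GC trend removed. The count was 0 without 6 h and 32 h, with upper-quartile scaling, with median centring and at periods of 20 h and 28 h. In these settings 2, 2, 3, 0 and 2 members had an unadjusted permutation p under 0.05. Leaving out 1 time point each gave 0 to 1 members. All genes called by JTK numbered 1990 of 12253 in the main test, 1944 with upper-quartile scaling and 1711 with median centring. They numbered 1457 with all 24 time points, 1423 in the cleaned table, 1586 with the GC trend removed and 1993 without the filter. The number fell to 1059 without 6 h and 32 h, 106 at 20 h and 298 at 28 h, and by the cosine 1847 fell to 539 at 20 h and 611 at 28 h.

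In the day comparison 3 members were called, all higher, and 0 with all 24 time points. The count, in either direction, was 2 to 4 under the other alternatives and 1 to 4 when a pair of hours was left out. Over all genes the calls numbered 2401 in the main fit and 1788 with all 24 time points. They numbered 1770 to 2596 under the other alternatives apart from the cleaned table. The cleaned table also kept 16 h and 18 h and gave 3930 calls among all genes, on a Z-score scale. There the members called were CEP152, higher, and CEP135, lower, and not SASS6 or CENPJ. The difference of PLK4, 0.02 and not called, turned to -0.036 with all 24 time points, -0.015 with median centring, -0.030 in the cleaned table and -0.012 with the GC trend removed, and ranged from -0.021 to 0.054 when a pair of hours was left out. That of CEP192 turned to -0.035 with all 24 time points. At 16 h and 18 h the members' median departure of 0.79 became 0.22 with the GC trend removed, and PLK4 (-0.11) and CEP192 (-0.05) changed sign. The cause was not tested. The labels give no replicates and the tests hold only as far as the scatter of single libraries allows.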
